A study of Homo sapiens with 8 samples.

Results

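Messenger RNAs of 8 plasma membrane amino acid transporters, SLC38A2, SLC38A1, SLC7A11, SLC7A5, SLC7A1, SLC3A2, SLC1A5 and SLC1A4, were followed in whole-cell RNA and in RNA from polysomes of OCI-AML3, an established cell line from human acute myeloid leukaemia. The genes were given by symbol and found through their Ensembl identifiers; the group was selected on measured values in so far as SLC38A2 was chosen by its lower level in polysome than in input RNA. They are 8 of the 58395 genes listed, and all 8 were among the 16503 genes with enough reads to be tested. The study coupled polysome profiling, in which a sucrose gradient parts mRNAs by the ribosomes they carry, to RNA sequencing, to describe the transcriptome of leukaemia cells with or without knockdown of FBL, the nucleolar rRNA 2′-O-methyltransferase fibrillarin. Cells of all groups had been infected with a short hairpin, shCT in the libraries labelled control (genotype WT, titles CT) and shFBL in those labelled knockdown (genotype FBL knockdown, titles U). All were held in cycloheximide, an elongation inhibitor, at 100 µg/mL for 15 min before lysis. Each lysate gave an input sample and a gradient of 14 fractions in all, and the sources used here do not name the fractions that made up the polysome sample. Input and polysome RNA, each under the control and the knockdown label, make 4 groups of 2 libraries, numbered 1 and 2 in the titles. Nothing in the labels assigns the 2 libraries to separate cultures or infections, so the p-values measure only the spread between these libraries, which may be technical. That spread also takes in any difference that went with the library number.

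Cells import amino acids through carriers that differ in substrates and coupling. SLC38A2 and SLC38A1 are sodium-coupled carriers of small neutral amino acids such as glutamine and alanine, and SLC38A2 is known for its induction when amino acids run short. SLC7A5 exchanges intracellular glutamine for leucine and other large neutral amino acids, and SLC7A11 exchanges intracellular glutamate for cystine, the precursor of glutathione. Both are light chains that reach the cell surface bound to the heavy chain SLC3A2 (CD98). SLC7A1 carries the cationic amino acids arginine and lysine, while SLC1A5 and SLC1A4 are sodium-dependent exchangers of neutral amino acids, with SLC1A5 a main glutamine carrier of many cancer cells. Several of these genes are known targets of the stress-response transcription factor ATF4.

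Reads assigned to genes numbered 22.2 M in the shallowest library, polysome knockdown 2, and 43.1 M in the deepest, input knockdown 2. Levels are given as counts per M (mega) reads (CPM), with library sizes scaled by the trimmed mean of M-values (TMM). The level of FBL, the targeted gene, did not separate the labels. It was 250 and 253 CPM in input control 1 and input knockdown 1, 88.1 and 84.2 CPM in the input libraries numbered 2, 498 and 499 CPM in the polysome libraries numbered 1, and 163 and 165 CPM in the polysome libraries numbered 2. FBL thus went with the library number and not with the label, so a direction between labels below is a direction between libraries labelled knockdown and libraries labelled control. Libraries of a group differed by a chi-square of 22.1 to 48.7 per degree of freedom over genes, more than sampling noise. The myeloid markers SPI1 and CEBPA were at 743 to 1130 CPM and 172 to 541 CPM, while MPO did not exceed 3.72 CPM.

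The sequences that set the members apart in composition are shown first. SLC38A2 had the lowest fitted polysome minus input difference of the 8 and SLC7A5 the highest, although SLC38A1 was below SLC38A2 in both control lysates. SLC38A2 and SLC7A5 lie far apart in the GC content of their coding sequence, 40.5% and 62.7%. The first 60 coding bases of both, with G and C in capitals, are from GRCh38 with GENCODE v29 transcripts:
SLC38A2 coding start (chr12:46371234-46371293, minus strand): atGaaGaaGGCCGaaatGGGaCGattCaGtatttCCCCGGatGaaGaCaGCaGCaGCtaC
SLC7A5 coding start (chr16:87869363-87869422, minus strand): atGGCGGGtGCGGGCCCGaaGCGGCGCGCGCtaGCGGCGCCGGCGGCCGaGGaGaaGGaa
Of these 60 bases 50% are G or C in SLC38A2 and 78.3% in SLC7A5. The 3′ untranslated regions (UTRs) of the 3 members that were lower on polysomes than in input in each lysate carried the AU-rich pentamer ATTTA 11 times in SLC38A2, 22 times in SLC38A1 and 32 times in SLC7A11. For each, the 30-base window with the most copies is shown with ATTTA in capitals; those of SLC38A1 and SLC7A11 include copies that share bases:
SLC38A2 3′ UTR window (chr12:46358434-46358463, minus strand): agatctcttATTTAaaATTTAaataaggaa
SLC38A1 3′ UTR window (chr12:46186693-46186722, minus strand): aatATTTATTTAaaatagATTTATTTAgag
SLC7A11 3′ UTR window (chr4:138169542-138169571, minus strand): ctcagactttaATTTATTTAtttttgattt

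ATF4 with C/EBP partners is known to bind an element whose core was searched as TGATGNAA, with N any base, on both strands of RefSeq promoters on GRCh38.p14, 250 bases before to 50 after each annotated start. Of the 8 members all but SLC7A11 matched a promoter in that table, 7 members with 13 promoters among them. SLC38A2 and SLC7A5 had 1 promoter each, without a match to the core. The core occurred in 5 of the 13, 1 each in SLC38A1, SLC7A1, SLC3A2, SLC1A5 and SLC1A4, against 3.62% of 35116 promoters of that length. By gene it was found in 5 of the 7 members and in 4.46% of 27305 genes, members with several promoters having more chances to hold a match. The 5 windows are shown because they are the feature most members share, with the match in capitals:
SLC38A1 promoter window (chr12:46266502-46266531, minus strand): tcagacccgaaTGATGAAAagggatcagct
SLC7A1 promoter window (chr13:29595663-29595692, minus strand): gggcgcactgcTGATGAAAcctggcgccgg
SLC3A2 promoter window (chr11:62881719-62881748, plus strand): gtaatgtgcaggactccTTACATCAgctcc
SLC1A5 promoter window (chr19:46784893-46784922, minus strand): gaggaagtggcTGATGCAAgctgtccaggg
SLC1A4 promoter window (chr2:64989381-64989410, plus strand): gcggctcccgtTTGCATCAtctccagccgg
The SLC3A2 and SLC1A4 matches read on the opposite strand. Those of SLC3A2 and SLC1A5 lie at annotated starts downstream of the coding start of the GENCODE v29 transcript used for that gene. All 5 are matches of letters, and binding was not measured here.

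Levels of different genes were compared only per kilobase (kb) of exon sequence. In bulk RNA a lower level per cell and fewer cells with the mRNA cannot be told apart. In input RNA SLC7A5 and SLC1A5 stood highest, at 28.7 and 28.4 CPM per kb on average over 4 libraries. Their ranges, 26.0 to 31.4 and 21.7 to 37.5 CPM per kb, overlapped, so that the order between them did not exceed their spread. SLC3A2 (13.6 CPM per kb, range 12.1 to 14.4), SLC38A2 (11.2, range 10.0 to 12.9) and SLC1A4 (10.8, range 8.89 to 13.02) followed, each overlapping the next. SLC7A1 lay below them without overlap, at 5.69 CPM per kb (range 4.95 to 6.76). Far beneath were SLC7A11, at 0.339 CPM per kb (range 0.207 to 0.541), and SLC38A1, at 0.247 CPM per kb (range 0.122 to 0.411), whose ranges overlapped.

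On polysomes the order of the others held while SLC38A2 dropped below SLC1A4 and SLC7A1. SLC7A5 averaged 49.5 CPM per kb (range 36.8 to 57.2) and SLC1A5 34.9 CPM per kb (range 23.6 to 45.5), again overlapping. SLC3A2 and SLC1A4 followed at 16.6 and 14.1 CPM per kb, with SLC7A1 at 6.36 CPM per kb. SLC38A2 was at 1.76 CPM per kb (range 1.44 to 2.08), below the lowest SLC7A1 library (5.25) and above the highest SLC7A11 library (0.285). As a share of the summed per-kb level of the 8 genes, SLC38A2 made up 11.3% in input and 1.42% on polysomes, and SLC7A5 29% and 40.1%. The order at the top depends on the length used: per kb of a single representative transcript, SLC3A2 averaged 32.5 CPM per kb in input, beside SLC1A5 at 32.9 and SLC7A5 at 30.01, because its representative transcript is 2161 bases and its merged exons are 5178 bases.

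**Figure D1:**
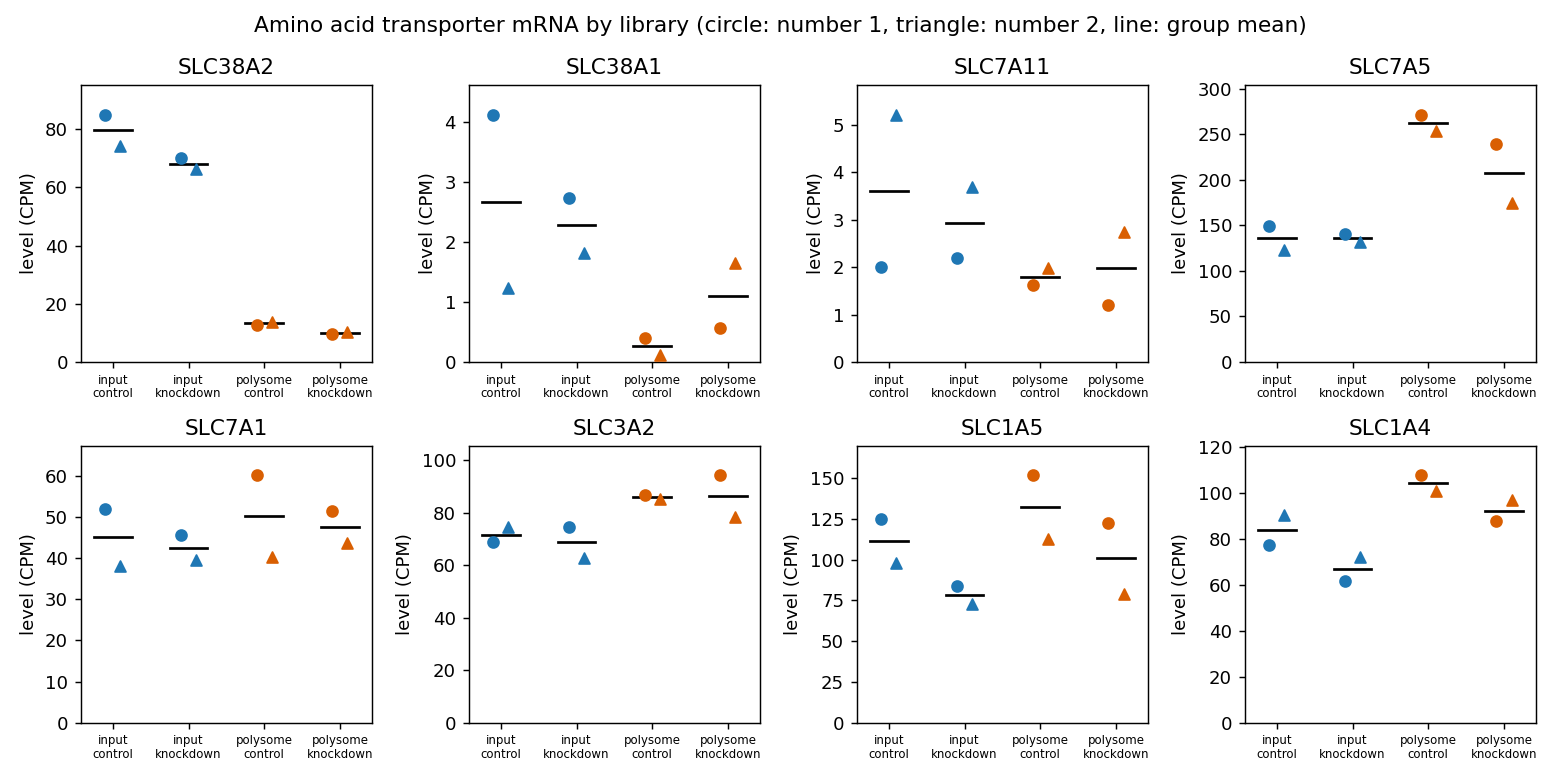
Level of each transporter mRNA in CPM (vertical axis, from 0) in the 4 groups (horizontal axis), with circles for libraries numbered 1, triangles for libraries numbered 2 and a line at the mean of 2. SLC38A2 lies between 66.2 and 85.0 CPM in input and between 9.50 and 13.7 CPM on polysomes, whereas SLC7A5 lies higher on polysomes than in input in every library.

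SLC38A2, on chr12:46358189-46372867 (minus strand), was at 85.0 and 74.3 CPM in input control 1 and 2 and at 69.9 and 66.2 CPM in input knockdown 1 and 2. On polysomes it was at 12.8 and 13.7 CPM in control 1 and 2 and at 9.50 and 10.4 CPM in knockdown 1 and 2. Every polysome library was thus below every input library, with 216 to 498 reads of SLC38A2 behind each polysome value. Within a lysate, taken as the input and polysome libraries of the same label and number, the polysome level was 15.1% of the input level in control 1, 18.5% in control 2, 13.6% in knockdown 1 and 15.7% in knockdown 2. Such percentages, here and below, compare scaled CPM of separately sequenced RNAs and are relative to the other mRNAs of each. They do not give the share of an mRNA that was on polysomes. The fitted difference was -2.68 on the log2 scale (SE 0.11). This SE comes from the fit to all 8 libraries, which did not pair input and polysome by lysate. The same holds for the SEs below, except where a lysate block is named. The 4 lysate log2 ratios of SLC38A2 had an SD of 0.18. Since SLC38A2 was named for its polysome minus input difference, that difference is described and not tested.

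Its paralog SLC38A1, on chr12:46183063-46270017 (minus strand), was much scarcer. Input levels were 4.12 and 1.22 CPM in control 1 and 2 and 2.73 and 1.82 CPM in knockdown 1 and 2. On polysomes it was at 0.405 and 0.1102 CPM in control and at 0.557 and 1.64 CPM in knockdown, values that rest on 14, 4, 20 and 34 reads. All input libraries but control 2 exceeded every polysome library, and all polysome libraries but knockdown 2 lay below every input library. The ratio of polysome to input was 9.84%, 9.01%, 20.4% and 90.1% in control 1, control 2, knockdown 1 and knockdown 2. With so wide a spread, the fitted log2 difference of -2.21 had an SE of 0.72.

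SLC7A5, on chr16:87830023-87869488 (minus strand), went the other way from SLC38A2. It was at 149 and 123 CPM in input control and at 141 and 131 CPM in input knockdown. On polysomes it reached 272 and 254 CPM in control 1 and 2 and 240 and 175 CPM in knockdown 1 and 2. All 4 polysome libraries were above all 4 input libraries, and polysome knockdown 2, the shallowest library, was the lowest of them. Polysome levels were 182% and 206% of input in the control lysates and 170% and 133% in the knockdown lysates, a log2 difference of 0.78 (SE 0.11). SLC7A5 has near copies in the genome, of which SLC7A5P1 was given 0 to 21 reads per library.

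The heavy chain SLC3A2, on chr11:62856102-62888875 (plus strand), differed little between libraries. It was at 68.7 and 74.6 CPM in input control, 74.7 and 62.7 CPM in input knockdown, 86.6 and 85.1 CPM in polysome control and 94.2 and 78.3 CPM in polysome knockdown. The lowest polysome library lay just above the highest input library. In the 4 lysates the polysome level was 114% to 126% of input, a log2 difference of 0.30 (SE 0.10). The ratio of SLC7A5 to SLC3A2 per kb of exon was 1.80 to 2.37 in input and 2.43 to 3.42 on polysomes, without overlap. With representative transcript lengths it was 0.787 to 1.03 and 1.06 to 1.49, so which of both mRNAs was the more abundant in input depends on the length used.

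SLC7A11, the cystine carrier on chr4:138164097-138242349 (minus strand), was at 2.00 and 5.22 CPM in input control, 2.20 and 3.68 CPM in input knockdown, 1.62 and 1.98 CPM in polysome control and 1.20 and 2.75 CPM in polysome knockdown. Polysome and input ranges overlapped, although within each lysate the polysome level was the lower, at 81.1%, 38%, 54.6% and 74.7% of input. The log2 difference was -0.79 (SE 0.49). Of its exon bases 8.97% are shared with the antisense gene SLC7A11-AS1, and the sources used here do not say whether reads were counted by strand. SLC7A1, on chr13:29509410-29595688 (minus strand), was at 52.0 and 38.1 CPM in input control, 45.6 and 39.5 CPM in input knockdown, 60.2 and 40.4 CPM in polysome control and 51.4 and 43.6 CPM in polysome knockdown. Its ranges overlapped across all groups, with polysome levels of 106% to 116% of input and a log2 difference of 0.16 (SE 0.16). With the lysate as block the difference was 0.15 (SE 0.10), and without polysome control 1, whose input partner stayed in that unblocked fit, it was -0.0045.

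SLC1A5, on chr19:46774883-46788594 (minus strand), was at 125 and 97.8 CPM in input control, 83.7 and 72.4 CPM in input knockdown, 152 and 112 CPM in polysome control and 123 and 78.7 CPM in polysome knockdown. Input and polysome ranges overlapped, but in each lysate the polysome library was the higher, at 121%, 115%, 146% and 109% of input. The log2 difference was 0.31 (SE 0.16). An unnamed antisense gene shares 23.4% of its exon bases. SLC1A4, on chr2:64988477-65023865 (plus strand), was at 77.03 and 90.4 CPM in input control, 61.7 and 72.0 CPM in input knockdown, 107 and 101 CPM in polysome control and 87.5 and 96.6 CPM in polysome knockdown. Its polysome level was 140%, 112%, 142% and 134% of input in control 1, control 2, knockdown 1 and knockdown 2, a log2 difference of 0.39 (SE 0.10), although the ranges overlapped.

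**Figure D2:**
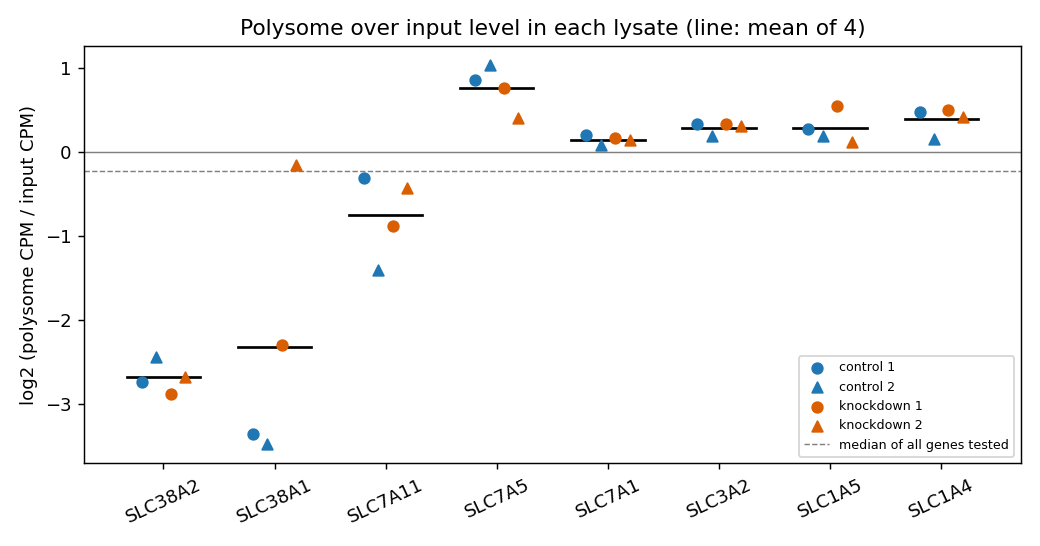
Log2 ratio of polysome to input CPM (vertical axis) for each transporter (horizontal axis), 1 point per lysate with blue for control and orange for knockdown labels, a black line at the mean of 4, and a dashed line at the median of all genes tested, -0.22. SLC38A2 lies between -2.88 and -2.44 in the 4 lysates, SLC38A1 spreads from -3.47 to -0.15, and SLC7A5 lies between 0.41 and 1.04.

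By direction of the uncorrected ratios the members fell into 2 sets. These directions are signs of TMM-scaled ratios, while the median of all genes tested was -0.22. The split did not hold relative to the median after the GC content and length correction given below. There SLC7A11 lay above the median, SLC1A5 and SLC3A2 below it and SLC7A1 close to it. SLC7A5, SLC7A1, SLC3A2, SLC1A5 and SLC1A4, 5 of the 8, were higher on polysomes in each of the 4 lysates, as were 23.8% of all genes tested. SLC38A2, SLC38A1 and SLC7A11 were lower in each lysate, as were 32.1% of all genes. SLC38A2 was the only member under 50% of input in each lysate, which 7.54% of genes were. Because the choice of genes used this contrast, these counts are a description. The difference of SLC38A2 stood at the 9.17th percentile of all 16503 genes, many of them scarce. Among the 3581 genes whose mean input level reached 50 CPM, 18 were lower. SLC7A5 stood at the 86.1st percentile, and the other 4 members that were higher on polysomes between the 63.9th and the 72.3rd.

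Base composition varied along with the polysome level among the members. The 3 that were lower on polysomes had the lowest coding GC contents, 40.5% in SLC38A2, 41.4% in SLC38A1 and 45.4% in SLC7A11. The 5 that were higher had coding GC contents of 55.2% in SLC7A1, 58.3% in SLC1A4, 58.7% in SLC3A2, 62.7% in SLC7A5 and 63.1% in SLC1A5. Copies of the ATTTA pentamer in the 3′ UTR numbered 11, 22 and 32 in the first set. The second set had 9 in SLC7A1, 2 in SLC7A5, 1 each in SLC1A5 and SLC1A4 and 0 in SLC3A2. Per kb of 3′ UTR there were 3.76 in SLC38A2, 3.72 in SLC38A1 and 4.07 in SLC7A11. The second set had 1.77 per kb in SLC7A1, 1.59 in SLC1A5, 0.678 in SLC7A5, 0.367 in SLC1A4 and 0 in SLC3A2. The length of the 3′ UTR did not part them, since those of SLC38A2 and SLC7A5 are 2925 and 2950 bases. Coding length was similar, from 1461 bases in SLC38A1 to 1890 in SLC3A2.

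Both features went with the polysome difference across all genes. Over 13085 protein-coding genes, Spearman's rho of the polysome minus input difference was 0.51 with coding GC content, 0.57 with the GC content of the whole transcript and -0.36 with the number of ATTTA pentamers. With ATTTA pentamers per kb of 3′ UTR, rho was -0.38 over 13065 genes. These are correlations across genes measured in the same 8 libraries, and genes are not independent replicates. In the decile of genes with the lowest coding GC content, 31.1% to 41.3%, the median difference was -0.92, and 6.64% of those genes were lower than SLC38A2. After a trend on GC content and length was removed from each library, an alternative chosen after seeing the data, the SLC38A2 difference was -1.58 (SE 0.13) against -2.68 without it. Relative to the median of all genes, which also moved, it was -1.82 against -2.46. With the same correction SLC38A1 was at -1.37 in place of -2.21, SLC7A11 at 0.36 (SE 0.54) in place of -0.79, SLC7A5 at 0.43 in place of 0.78, SLC3A2 at 0.17 in place of 0.30 and SLC1A5 at 0.02 in place of 0.31, while SLC1A4 went from 0.39 to 0.44 and SLC7A1 from 0.16 to 0.23. The median of all genes went from -0.22 to 0.24. Relative to that median the corrected differences were -1.61 in SLC38A1, 0.12 in SLC7A11, 0.19 in SLC7A5, -0.07 in SLC3A2, -0.22 in SLC1A5, 0.20 in SLC1A4 and -0.0098 in SLC7A1.

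**Figure D3:**
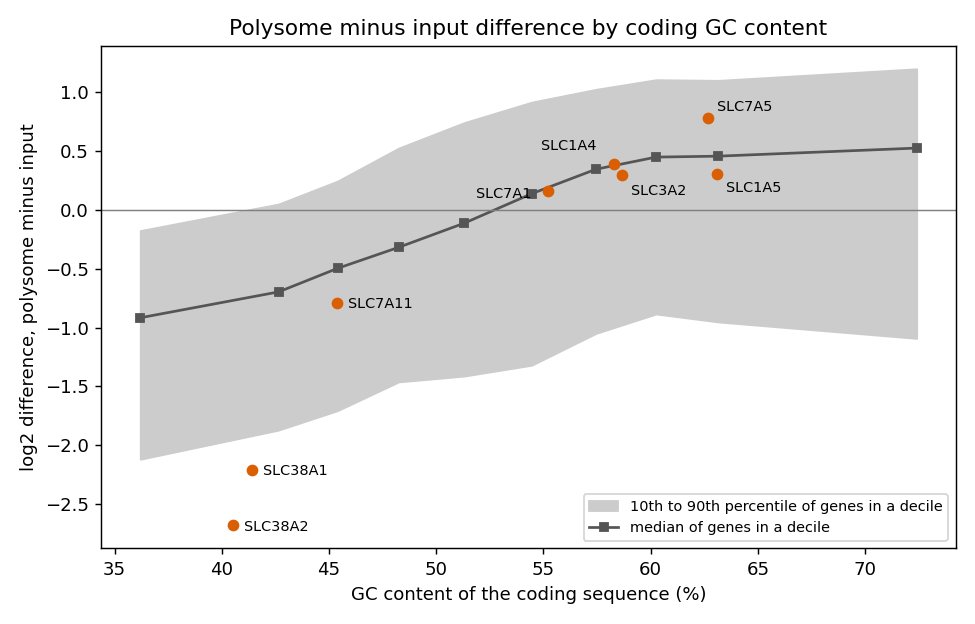
Log2 difference of polysome minus input (vertical axis) against the GC content of the coding sequence in percent (horizontal axis), with the median (squares) and the 10th to 90th percentile (grey band) of protein-coding genes in deciles of GC content, each drawn at the middle of its range, and the 8 transporters as orange points. The medians run from -0.92 in the lowest decile to 0.52 in the highest, and SLC38A2 and SLC38A1 lie below the band while the other 6 lie inside it.

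No transporter passed a test between the labels in either kind of RNA by edgeR's quasi-likelihood test with Benjamini-Hochberg adjustment over all genes. Each label group held a library of either number, so differences that went with the number, as FBL did, counted as spread. With the number as block, edgeR calls over all genes went from 0 to 66 in input RNA and from 145 to 1053 in polysome RNA. None of the 8 was called with that block. In input RNA 0 of the 8 passed an adjusted p of 0.05, as did 0% of all genes tested. DESeq2 called 76 genes and limma-voom 3, none of them a member. At an unadjusted p under 0.05, which 4.51% of genes reached, there were 2 members, both with lower levels in the libraries labelled knockdown. SLC1A5 was at 83.7 and 72.4 CPM in them against 125 and 97.8 CPM, a log2 change of -0.51 (SE 0.22; edgeR unadjusted p = 0.0426, adjusted p = 1). SLC1A4 was at 61.7 and 72.0 CPM against 77.03 and 90.4 CPM, a log2 change of -0.32 (SE 0.14; edgeR unadjusted p = 0.0381, adjusted p = 1). The knockdown and control libraries did not overlap for these 2 and for SLC38A2 (log2 change -0.23, SE 0.15), all lower in knockdown, as were 20.3% of all genes. The other 5 overlapped, with SLC7A5 at a log2 change of 0.00 (SE 0.15).

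In polysome RNA 0 of the 8 passed, against 0.879% of all genes tested by edgeR, and neither DESeq2, which called 1203 genes, nor limma-voom, which called 297, called any of the 8. SLC38A2 had the smallest p of them, with 9.50 and 10.4 CPM in knockdown against 12.8 and 13.7 CPM in control, a log2 change of -0.42 (SE 0.16; edgeR unadjusted p = 0.0231, adjusted p = 0.204). It was the 1 member at an unadjusted p under 0.05, which 18.1% of genes reached. SLC7A5 followed with a log2 change of -0.34 (SE 0.15; edgeR adjusted p = 0.276), which without polysome knockdown 1 was -0.59 with an adjusted p of 0.0341 by the same edgeR test; leaving out that library also took the calls over all genes from 145 to 1455 of 16503. Over all 18 alternatives the edgeR, DESeq2 or limma-voom adjusted p of SLC7A5 ran from 0.0341 to 0.745. SLC38A1 had a log2 change of 2.07 (SE 1.03; edgeR adjusted p = 0.317) on 4 to 34 reads. The groups did not overlap for SLC38A2, SLC7A5 and SLC1A4, all lower in knockdown, as were 23.6% of genes, nor for SLC38A1, higher in knockdown, as were 15.4%. SLC1A5 was at a log2 change of -0.39 (SE 0.22), SLC1A4 at -0.18 (SE 0.14), SLC7A1 at -0.08 (SE 0.22), SLC3A2 at 0.01 (SE 0.14) and SLC7A11 at 0.12 (SE 0.69).

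In the polysome knockdown libraries, where SLC38A1 was higher than in polysome control, the summed levels of erythroid and megakaryocytic markers (8 genes) and of lymphoid markers (7 genes) were the highest of the 8 libraries, at 3.93 to 8.49 CPM and 6.07 to 8.25 CPM. In the other 6 libraries they were 1.31 to 3.73 CPM and 3.11 to 4.11 CPM. GATA1 and PF4 of the first list and CD3E, CD3D, MS4A1 and CD2 of the second were at 0 in all 8 libraries. Of the 10 myeloid markers, 6 were higher and 4 lower in polysome knockdown than in polysome control. CD14 (log2 change 1.14, edgeR adjusted p = 0.0363) and FCGR1A (log2 change 0.69, edgeR adjusted p = 0.0479) were called higher, as were 0.248% of all genes tested. With the 4 polysome libraries fitted alone, edgeR called 0 of all genes. The sum of the list was 1680 to 1720 CPM in knockdown and 1642 to 1888 CPM in control. The part of these markers in the label changes of the members was not tested.

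The difference between the label changes on polysomes and in input, that is the change in polysome level beyond that of the mRNA itself, passed for 0 of the 8 and for 0% of all genes tested by edgeR. At an unadjusted p under 0.05, 0 members and 6.34% of genes were found, and neither DESeq2, which called 10 genes, nor limma-voom, which called 0, called any of the 8. SLC38A2 was at -0.19 (SE 0.21), SLC7A5 at -0.34 (SE 0.22) and SLC38A1 at 2.30 (SE 1.40), with edgeR adjusted p-values of 0.916, 0.787 and 0.783. The remaining 5 lay between 0.00 in SLC7A1 and 0.41 in SLC7A11. The ratio of polysome to input of SLC38A2 was 15.1% and 18.5% in the control lysates and 13.6% and 15.7% in the knockdown lysates, which overlap.

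**Figure D4:**
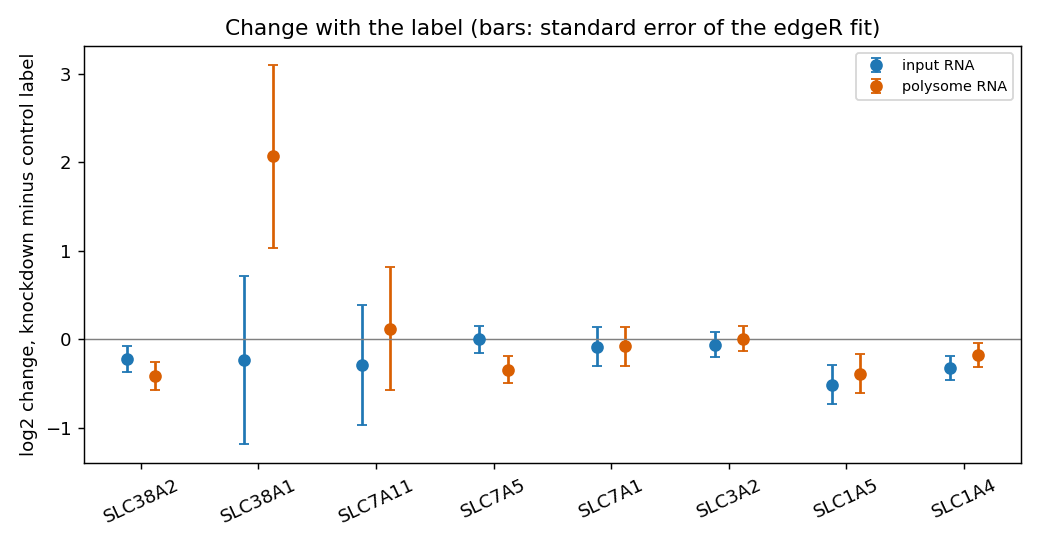
Log2 change of knockdown minus control label (vertical axis) for each transporter (horizontal axis) in input RNA (blue) and polysome RNA (orange), with bars of 1 standard error from the edgeR fit to 8 libraries. SLC38A1 and SLC7A11, the scarce members, have the widest bars, and the polysome values of SLC38A2 and SLC7A5 are -0.42 and -0.34.

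Because FBL went with the library number, members were also set side by side by number, as a description with no test. SLC7A5, SLC7A1 and SLC1A5 were lower in the library numbered 2 in each of the 4 groups, as were 12.1% of all genes tested. In number 2 SLC1A5 was at 64.2% to 86.5% of number 1, SLC7A1 at 67.1% to 86.5% and SLC7A5 at 72.8% to 93.5%. SLC7A11 was higher in number 2 in each group, by 1.22-fold to 2.61-fold, as were 9.76% of genes. SLC38A2 was lower in number 2 in both input groups and higher in both polysome groups, with log2 ratios between -0.20 and 0.13, a difference that was not tested. The number may stand for anything that set these libraries apart, and FBL and other differences between them cannot be told apart.

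**Figure D5:**
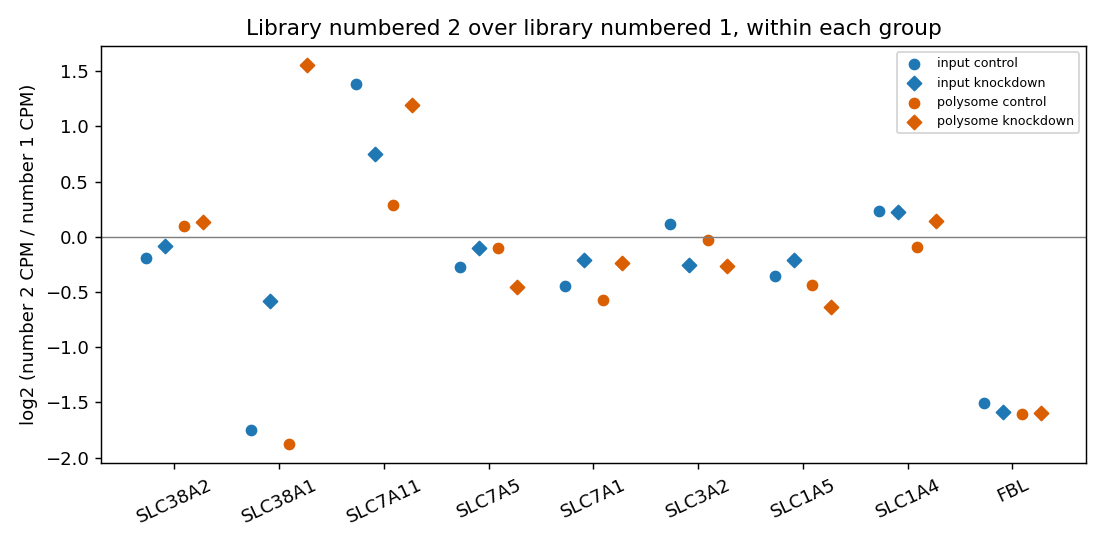
Log2 ratio of the library numbered 2 to the library numbered 1 (vertical axis) within each of the 4 groups, for the 8 transporters and FBL (horizontal axis), with blue for input, orange for polysome, circles for control and diamonds for knockdown. FBL lies between -1.61 and -1.504 in all 4 groups, SLC1A5 between -0.64 and -0.21 and SLC7A11 between 0.29 and 1.39.

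Other carriers and the pathways they serve were taken from lists chosen with earlier results of these data known. Among 13 tested genes of 31 other plasma membrane amino acid transporters, 3 were higher and 2 lower on polysomes than in input by edgeR at an adjusted p under 0.05, against 20% and 22.8% of all genes tested (42.9% in either direction), with a median log2 difference of -0.52 (all genes -0.22). The extremes among genes of at least 5 CPM were the leucine carriers SLC43A2 (0.56) and SLC43A1 (0.55), and the glutamate carrier SLC1A3 (-1.46) and SLC36A4 (-0.54). Transporters of organelle membranes had 5 higher and 4 lower of 18 and a median of 0.14; SLC15A3 (0.90) and MFSD12 (0.83) were at one end, SLC15A4 (-1.34) and SLC38A9 (-1.19), a lysosomal arginine sensor, at the other. Enzymes of amino acid and glutathione synthesis had 11 higher and 4 lower of 27 and a median of 0.22, with PYCR1 of proline synthesis (1.20) and PHGDH of serine synthesis (1.16) highest and PSAT1 (-1.19) among the lowest. PHGDH and PSAT1, successive enzymes of the serine pathway, thus differed in direction.

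Genes of amino acid sensing and of the kinase complex mTORC1 with its regulators had 12 higher and 8 lower of 31 and a median of -0.11. WDR24 (1.27) and LAMTOR2 (1.17) were highest and LAMTOR3 (-1.76) and FNIP1 (-1.05) lowest. In the list of 35 other plasma membrane transporters 6 were higher and 15 lower, with a median of -0.43; SLC12A4 (0.83) was among the highest and SLC39A10 (-1.51) and SLC16A7 (-1.46) were lowest. Over these 5 lists, none of the 105 genes of at least 5 CPM had a difference as low as the -2.68 of SLC38A2. Because SLC38A2 was named for its low difference, this is a description, and 1513 of all 16503 genes tested were lower.

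Between the labels 2 genes of the 5 lists passed edgeR's test, both in polysome RNA, where 0.63% of all genes tested passed as lower and 0.248% as higher. MLST8, a subunit of mTORC1, was at 210 and 179 CPM in knockdown against 302 and 306 CPM in control, a log2 change of -0.65 (SE 0.11; edgeR adjusted p = 0.0363). The lactate exporter SLC16A3 was at 295 and 269 CPM against 430 and 448 CPM, a log2 change of -0.64 (SE 0.11; edgeR adjusted p = 0.0403). Both kept their direction in 18 alternatives, in which MLST8 passed in 9 and SLC16A3 in 8, and with the 4 polysome libraries fitted alone their adjusted p-values were 0.298 and 0.272. In input RNA and for the difference between both kinds of RNA 0 genes of the lists passed by edgeR, with 13 and 7 at an unadjusted p under 0.05. The 5 lists held 13, 18, 27, 31 and 35 tested genes. Among all genes tested, 4.51% in input RNA and 6.34% for the difference reached that unadjusted p.

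Genes most like each member were sought among about 7900 protein-coding genes averaging 10 CPM or more, by the root mean square difference of centred log2 levels over the 8 libraries. Closest to SLC38A2 were the poly(A)-binding protein gene PABPC1 (0.165), the cyclin gene CCNL1 (0.22) and the complement regulator CD46 (0.29), against a median of 1.41 over all candidates. PABPC1 was at 707 to 870 CPM in input and 105 to 127 CPM on polysomes, so that its polysome libraries too were all below its input libraries. The distance takes in the polysome minus input difference, for which SLC38A2 was chosen. Genes close to SLC38A2 were therefore bound to be low on polysomes, and that likeness is a description only. For SLC7A5 the closest were TMEM208 (0.0545), the phosphatase subunit PPP1CA (0.0556) and PGAP6 (0.0595), with a median of 0.449. SLC1A5 was nearest to COPRS (0.0682), SLC1A4 to SERTAD3 (0.0652), SLC3A2 to the tyrosine kinase BTK (0.0691) and SLC7A1 to SCFD2 (0.0827). SLC7A11 was nearest to ADA2 (0.282) and SLC38A1 to RBM48 (0.688), the largest of these nearest distances. Among the members themselves SLC3A2 and SLC1A4 were the closest pair (0.201), and SLC38A1 and SLC7A5 the farthest apart (1.86).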

How the data were processed

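RNA sequencing libraries of input and polysome RNA (8 in all, 2 in each of 4 groups from the genotype label and the title) were used. The authors deposited raw counts of reads for each gene. Trimmomatic 0.38, Bowtie2 and HTSeq 0.11.2 with GRCh38 are named in the submitters' processing notes; the sources used here give no Bowtie2 version, strand setting or annotation release. Bowtie2 makes no spliced alignments, so that reads over exon junctions may be lost. Lines that name no gene held 13.2% to 15% of the reads and stayed out of library sizes.

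Of 58395 identifiers 58275 are in GENCODE v29, which gave positions, exon lengths and transcripts. Counts were fitted in edgeR 4.0.16 (R 4.3.3, limma 3.58.1) with filterByExpr, TMM scaling and quasi-likelihood tests on 1 term per group over all 8 libraries. This left 4 residual degrees of freedom before sharing of the spread across genes. P-values were adjusted by Benjamini-Hochberg over 16503 genes, with 0.05 as threshold. The polysome against input difference of the members was not tested. Alternatives were other scalings and filters, DESeq2 1.42.0, limma-voom, a block, fewer libraries and a GC content and length correction (loess span 0.5). Calls were tested on simulated data, with changes put into genes averaging 10 CPM or more. A log2 change of 1 was called for 72% of changed genes in input RNA and 65% in polysome RNA. For the difference between both kinds of RNA it was called for 25%. At a log2 change of 2 these were 100%, 99% and 91%. Of 190, 173 and 121 calls, 18, 9 and 5 were false. Smaller changes were not simulated. SLC38A1 and SLC7A11 averaged below 10 CPM, so these rates do not cover them. The simulated libraries were drawn independently, without shared effects of lysate or number.

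The members and lists were chosen with earlier results of these data known. Named were all members and FBL, list genes past the threshold between labels (up to 6 of a list), the 2 highest and 2 lowest of each list by polysome minus input at 5 CPM or more, and the 3 genes most like a member. A few genes that this rule names are not reported here. Each input and polysome library of a number and label come, by the protocol, from a lysate split in parts, and their deviations from the group means correlated at 0.311 (control) and 0.354 (knockdown) over 8159 genes. RefSeq promoters are on GRCh38.p14.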

Additional observations from a re-analysis of the deposited data

How the results depend on the processing

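Depth limits SLC38A1 most, with 4 to 34 polysome reads a library. Each library left out leaves 1 in its group, which is then assumed to vary like the others. No member was called between labels under any alternative except in polysome RNA without polysome knockdown 1, where the count went from 0 to 1 (SLC7A5). Leaving out each library gave counts of 0 to 1 in polysome RNA and 0 to 0 in input RNA and for the difference between both. The count over all genes was less stable: 145 in polysome RNA ranged from 0 (the 4 polysome libraries alone, GC content and length correction, or without polysome control 2) to 1455 (without polysome knockdown 1), 0 in input from 0 to 83 (no filter), and 0 for the difference from 0 to 55 (no filter, or without polysome knockdown 1). For polysome against input 7072 ranged from 5149 to 7763.

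The SLC38A2 polysome minus input difference was -2.75 to -2.65 with each library left out, and -1.58 with the GC content and length correction or -1.59 with that correction and the lysate as block, both chosen after seeing the data. The median of all genes moved from -0.22 to 0.24 with that correction, -0.52 with no filter and -0.02 at 10 CPM or more, and relative to it SLC38A2 stayed between -2.77 and -1.79. SLC7A11 turned to 0.36 with the correction and 0.38 with the block added, and SLC7A1 ranged from -0.0045 (without polysome control 1) to 0.28 with each library left out.

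With the lysate as replicate block the SLC38A2 difference was -2.68, and blocked fits called 0 members. The labels do not say what same-numbered libraries of both labels share beyond the number; their deviations correlated at 0.472 in input and 0.178 on polysomes, and FBL went with the number. Blocking on it moved the calls over all genes from 145 to 1053 in polysome RNA and from 0 to 66 in input.

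Several label changes, none called, changed sign, and the cause was not tested. The widest ranges were those of the scarce members SLC38A1 and SLC7A11, whose input changes had SEs of 0.95 and 0.68. With each library left out in turn, the input change ranged from -0.15 to 0.12 in SLC7A5, -0.30 to 0.14 in SLC7A1, -0.87 to 0.87 in SLC38A1, -0.22 to 0.048 in SLC3A2 and -0.85 to 0.54 in SLC7A11. The polysome change ranged from -0.34 to 0.23 in SLC7A1, -0.59 to 0.61 in SLC7A11 and -0.13 to 0.14 in SLC3A2. The difference between both kinds of RNA ranged from -0.23 to 0.41 in SLC1A5, -0.25 to 0.32 in SLC7A1, -0.070 to 0.29 in SLC3A2 and -0.34 to 1.05 in SLC7A11. In input RNA SLC7A5 also turned to 0.013 (upper quartile scaling), 0.0033 (10 CPM or more), 0.0071 (number block) and 0.0036 (input libraries alone). On polysomes SLC7A1 turned to 3.8e-05 (upper quartile), 0.011 (10 CPM or more), 0.051 and 0.081 (correction, without and with the number block), and SLC7A11 to -0.15 (limma-voom) and -0.0015 (number block). For the difference SLC7A11 turned to -0.054 (limma-voom) and SLC38A2 to 0.038 and 0.024 (correction, without and with the lysate block).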
